A study of Mus musculus with 147 samples.

Results

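The genes described here are 10 mouse imprinted genes of growth control, *Peg3*, *Ndn*, *Cdkn1c*, *Plagl1*, *Meg3*, *Dlk1*, *H19*, *Grb10*, *Mest* and *Rian*. They were looked up by symbol among the 35438 genes of the deposited count tables of single WT renin cells and Renin-null cells. *Peg3* was chosen by its summed level in these same cells, which was already known to be lower in Renin-null cells, so its values are a description, and the question was where the other 9 lie. Of the 10 symbols, 7 have a row, and 6 of these hold counts. *Dlk1* was listed at 0 in every cell. No row carries the symbols *Meg3*, *H19* or *Rian*, and these long noncoding RNAs were not analysed here: only 20 of 5832 annotated lincRNA symbols (0.343%) were found in the gene column, against 97.3% of 21894 protein-coding symbols.

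Renin cells are the juxtaglomerular cells of the kidney arterioles that make renin, and renin loss is followed by thickening of these arterioles. Both genotypes were C57BL/6 adult mice of both sexes with the *Ren1c-YFP* transgene, in which the 5′ regulatory sequence of *Ren1c* drives YFP, so a sorted cell is one in which that sequence was or had recently been active. WT mice were *Ren1c+/+*, and Renin-null cells came from *Ren1c-/-* mice, which were kept alive after birth with saline injections. YFP+ cells of the kidney cortex were sorted, captured on Fluidigm C1 chips and amplified with SMART-Seq v4.

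The tables hold 51 WT cells from a single capture and 96 Renin-null cells from several captures, sequenced as the libraries YFP1 and YFP2 of 48 cells each. Each genotype pools several mice, and the labels tie no cell to a mouse or capture. Each genotype is therefore 1 sample and no test between genotypes was possible. Effects of genotype, capture and library cannot be told apart. Cells are numbered within their genotype, and a cell is 1 capture site of the chip. Counts per cell ranged from 26401 to 17124854 in WT cells and from 3628 to 14505243 in Renin-null cells. The median share of counts from the 13 mitochondrially encoded genes was 60.4% in WT cells and 12.4% in Renin-null cells.

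*Ren1* counts followed the labels, with 96023 counts per 1000000 counts (CPM) over the summed WT cells and 0.135 CPM over the summed Renin-null cells. There were 4 pairs of Renin-null cells that were nearly identical across all genes, with correlations of log2(CPM + 1) of at least 0.974, where the next pair reached 0.896. The pairs were YFP1 cell 45 with YFP2 cell 93, YFP1 cell 46 with YFP2 cell 94, YFP1 cell 47 with YFP2 cell 95, and YFP2 cell 48 with YFP2 cell 96. For the listed genes at 10 CPM or more, the number of cells with each pair counted once is also given where it differs. The same was done for some ratios in which these cells held a large share of the counts. All other counts of cells, such as those with markers of other cell types, include both cells of a pair.

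An imprinted gene is read mainly from the copy inherited from 1 parent, because a methylation mark set in the egg or sperm silences the other copy or its neighbours. Many imprinted genes act on fetal growth, with paternally expressed genes often promoting it and maternally expressed genes often limiting it, and most are turned down in organs after birth. *Plagl1* encodes a zinc finger transcription factor that is known to control other imprinted genes, among them *Cdkn1c*, *Dlk1* and *H19*, which gave rise to the term imprinted gene network. The counts do not separate the parental copies, so nothing here measures imprinting itself.

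*Peg3* and the neighbouring imprinted gene *Usp29* start head to head on chromosome 7, and the imprinted mark of this domain lies over their shared start. The 163 bases from start to start are shown because values of both genes follow, read from RefSeq on GRCm38.p6 on the plus strand at chr7:6730420-6730582, with the CpG dinucleotides, the bases that carry such methylation, in capitals.
*Peg3*-*Usp29* start region: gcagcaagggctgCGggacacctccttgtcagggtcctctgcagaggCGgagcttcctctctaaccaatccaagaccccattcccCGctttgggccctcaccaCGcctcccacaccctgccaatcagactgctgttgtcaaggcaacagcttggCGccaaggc
The stretch holds 5 CpG (the letters CG, the same on both strands), and 47% of 32851 promoter windows of the same length hold as many or more.

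*Peg3*, a paternally expressed zinc finger protein known for roles in growth, maternal behaviour and p53-linked cell death, was the only one of the 6 genes with a lower summed level in Renin-null cells. It is encoded on the minus strand at chr7:6703892-6730431 (GRCm38). *Peg3* summed to 42102 counts in WT cells (213 CPM) and to 4107 counts in Renin-null cells (10.3 CPM). The log2 ratio was -4.37 with a 95% interval of -4.42 to -4.32, which is 20.7-fold lower. All intervals of levels and ratios here cover counting error only, since the kit has no molecular identifiers and PCR copies are not independent molecules.

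The *Peg3* difference was seen in many cells. *Peg3* ranged from 0 to 1679 CPM over the 51 WT cells, with a median of 4.21 CPM. It ranged from 0 to 592 CPM over the 96 Renin-null cells, with a median of 0. The ranges overlap, and fewer Renin-null cells held the transcript at each limit: 43 of 51 WT cells and 28 of 96 Renin-null cells had at least 1 count. At 100 CPM or more were 9 WT cells and 1 Renin-null cell. At a limit of 10 CPM these numbers were 17 of 51 WT cells (33.3%, exact Clopper-Pearson 95% interval 20.8% to 47.9%) and 4 of 96 Renin-null cells (4.17%, interval 1.15% to 10.3%). These intervals take the captured cells as independent draws and do not cover the spread between mice. In shallow cells 10 CPM is few reads: 3 of the 17 WT cells and 1 of the 4 Renin-null cells had under 10 *Peg3* counts. Thinned to 62978 counts in every cell, 34.7% of 49 WT cells and 7.23% of 83 Renin-null cells kept a *Peg3* count. Thinning set the total counts equal, mitochondrial ones included, so the depth over nuclear genes still differed.

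What *Peg3* remained in Renin-null cells came largely from a single capture site. YFP2 cell 87 held 79.6% of the Renin-null *Peg3* counts at 592 CPM. That site also held 3005 CPM summed over 6 podocyte markers, 1637 CPM over 6 endothelial markers and 5106 CPM over 6 smooth muscle markers, and whether it caught more than 1 cell was not tested. The next Renin-null cell, YFP1 cell 39, had 81.7 CPM. Without YFP2 cell 87 the summed Renin-null level was 2.13 CPM and the log2 ratio -6.65. In WT cells the highest cell, cell 18, held 33.4% of the counts, and without it the log2 ratio was -3.84. YFP1 and YFP2 lay at -5.96 and -3.73 against WT.

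Across the 51 WT cells, *Peg3* was set beside the markers and the quality of each cell. Spearman's rho of *Peg3* was 0.36 with *Ren1* and 0.38 with *Akr1b7*, a further marker of renin cells. It was 0.23 with the smooth muscle gene *Acta2*, 0.32 with genes per cell, 0.14 with counts per cell and -0.25 with the mitochondrial share. A total of 15 WT cells passed limits on quality (100000 counts or more, 1000 genes or more, a mitochondrial share up to 25%). In these, rho was 0.62 with *Ren1*, 0.59 with *Akr1b7* and -0.08 with *Acta2*. With genes per cell, counts per cell and the mitochondrial share it was 0.11, 0.21 and 0.09. Of 1409 genes that reached 10 CPM in at least 20% of WT cells, those most like *Peg3* in log2(CPM + 1) were *Clu* (rho 0.57), *Epn2* (0.57), *Enah* (0.56), *Rsu1* (0.55) and *Ddx3x* (0.55), where the median gene had 0.20. These points share 1 library and differ in depth, so the values are a description. The log2 ratios of these 5 genes ran from -0.59 for *Epn2* and -0.45 for *Ddx3x*, both below WT in each library, to 1.76 for *Rsu1*, beside -4.37 for *Peg3*.

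**Figure D1:**
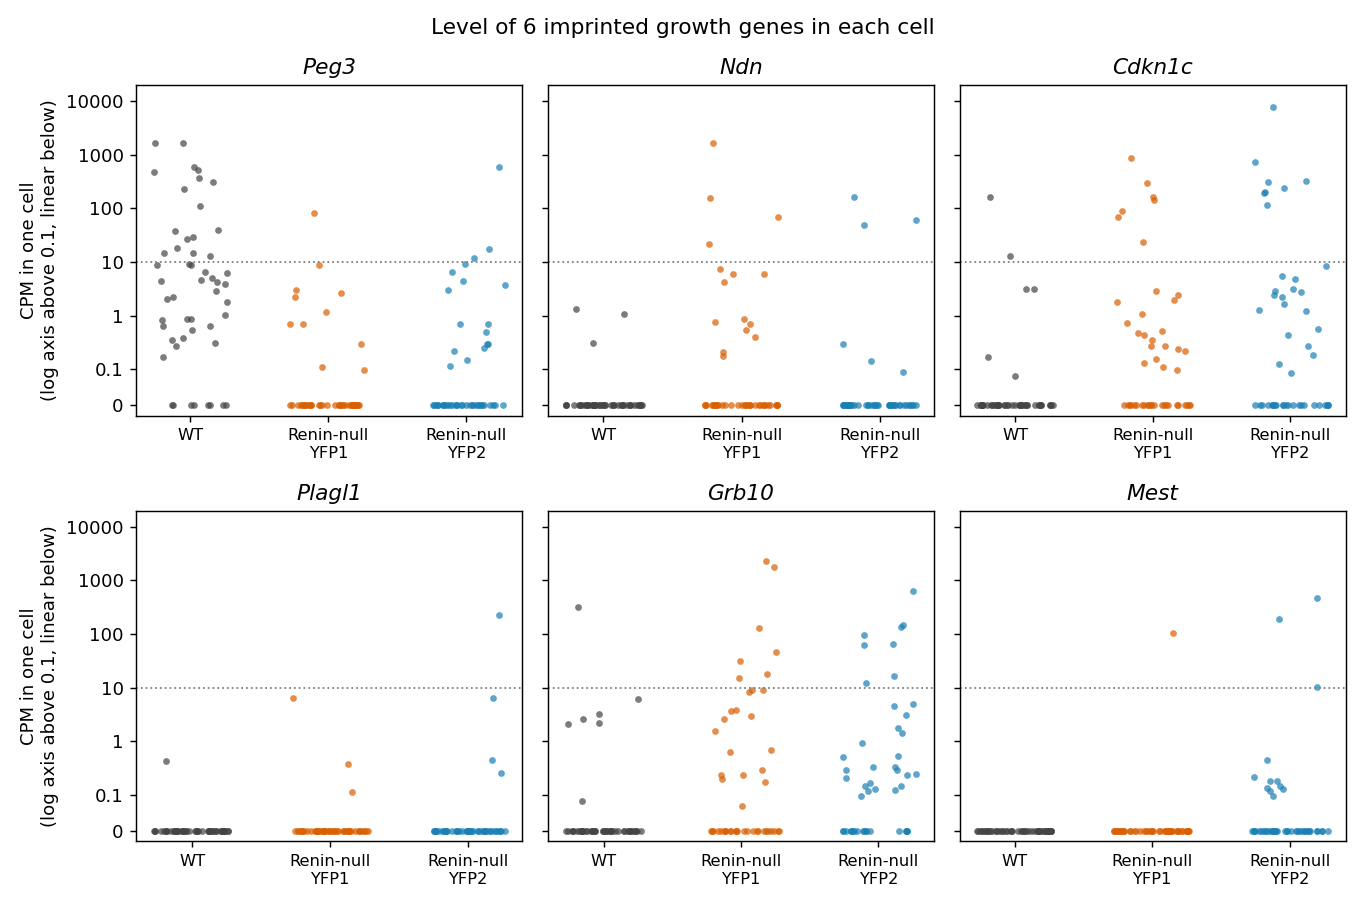
Level of each of 6 genes in each cell, in CPM on a log axis that turns linear below 0.1, for 51 WT cells and for the 48 YFP1 and 48 YFP2 Renin-null cells; each point is 1 cell and the dotted line marks 10 CPM. *Peg3* has a count in 43 of 51 WT cells and reaches 10 CPM in 17 of them, whereas each of the other 5 genes reaches 10 CPM in at most 2 WT cells and in 1 to 15 Renin-null cells.

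The other 5 genes did not lie on the same side as *Peg3*. To read their ratios, the background matters: the median log2 ratio of 18720 genes was 1.17, and genes at least 2-fold below or above that median made up 34.6% and 37.6% of all genes. Against this median, *Peg3* was lower and *Ndn*, *Cdkn1c*, *Plagl1*, *Grb10* and *Mest* were higher, with a median of 6.25 over the 6 genes. *Mest*, *Plagl1* and *Ndn* had only 0, 5 and 19 counts over all WT cells. With so few, a lower level in Renin-null cells could hardly have been seen. The side on which *Mest*, *Plagl1* and *Ndn* lay therefore cannot show whether they follow *Peg3*. Below WT itself lay 1 of 6 genes, against 32.4% of all genes. *Peg3* was also at least 2-fold below the median, and below WT, in each library alone, as were 35.8% and 39.9% of all genes in YFP1 and 34.5% and 34.8% in YFP2. In the YFP1 cells alone 3 genes were at least 2-fold above that library's median and in the YFP2 cells 4 genes were, against 36.9% and 37.4% of all genes.

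Of the genes that limit cell division, *Cdkn1c* encodes the cyclin-dependent kinase inhibitor p57Kip2. It is expressed from the maternal copy and is known as a marker of mature podocytes. It is encoded at chr7:143458339-143461050 on the minus strand. *Cdkn1c* ranged from 0 to 164 CPM over WT cells with a median of 0, and from 0 to 7776 CPM over Renin-null cells with a median of 0.10. At least 10 CPM was reached by 2 of 51 WT cells (3.92%) and by 15 of 96 Renin-null cells (15.6%), or 14 with near-identical pairs counted once. Of these, 1 WT cell and 3 Renin-null cells had under 10 counts of the gene, and 7 of the 15 Renin-null cells carried 1000 CPM or more of markers of other kidney cell types, as did 20 of 96 Renin-null cells in all. The ranges overlap, and most cells of both genotypes sat near 0.

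The *Cdkn1c* counts summed to 9.75 CPM for WT and 241 CPM for Renin-null cells (log2 ratio 4.63, interval 4.56 to 4.69). By library the sums were 28.5 CPM in YFP1 and 418 CPM in YFP2. YFP1 lay at 1.55, within 2-fold of that library's median of 0.71, and YFP2 at 5.42. A single site, YFP2 cell 59, gave 83.1% of the Renin-null counts. That cell had 4400 CPM of *Nphs1*, 2792 CPM of *Podxl* and 1751 CPM of *Wt1*, which are defining podocyte genes, and only 11.6 CPM of *Acta2* and 0.58 CPM of *Akr1b7*. The second by counts, YFP2 cell 75, had 733 CPM of *Cdkn1c* together with 1253 CPM of *Nphs1* and 10797 CPM of *Tagln*. Cells without such markers also held *Cdkn1c*: YFP1 cell 4 had 870 CPM (287 counts) with 66.7 CPM over the podocyte list, and YFP1 cell 1, the third by counts, 141 CPM with 0.28 CPM over that list.

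The summed podocyte list was higher in Renin-null cells, mainly in 1 library. Its 6 markers summed to 98.8 CPM in WT cells, where *Synpo* led and *Podxl* was at 0, and to 639 CPM in Renin-null cells, again led by *Synpo*. The sum was 166 CPM in YFP1 and 1033 CPM in YFP2. *Synpo* itself lay near the median gene (log2 ratio 1.01), and *Nphs1* and *Wt1* were below WT in YFP1 (-0.32 and -0.43) and above it in YFP2 (6.67 and 8.02). Podocyte sums reached 1000 CPM in 6 Renin-null cells and in 0 WT cells. In YFP1 cell 17 and YFP2 cell 66 nearly all of that sum was *Synpo* alone, at 2303 and 1855 CPM. Both cells also had high smooth muscle sums, of 29247 and 9860 CPM, and both are among the marker-bearing cells left out below. Without YFP2 cell 59 summed *Cdkn1c* was 41.8 CPM on the Renin-null side, or 2.10 as a log2 ratio. With every Renin-null cell left out that held 1000 CPM or more of podocyte, endothelial, tubule, collecting duct or macrophage markers (20 of 96 cells), the log2 ratio was 1.27, within 2-fold of the median gene. Conversely, 95.5% of the WT counts came from WT cell 6, and without it WT cells had 0.46 CPM and the log2 ratio was 9.03. In bulk sums of this kind, fewer cells with a transcript and less transcript in each cell cannot be told apart, which is why the cell counts stand beside each ratio.

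*Plagl1*, the transcription factor of the network, is paternally expressed and is known to arrest the cell cycle. It lies at chr10:13060504-13131694 on the plus strand. *Plagl1* had 5 counts in WT cells, all in 1 cell, and 2362 counts in Renin-null cells, of which 97.0% were in the same YFP2 cell 59 that led *Cdkn1c*. That cell had 223 CPM, and no other cell of either genotype reached 10 CPM. Summed levels were 0.025 and 5.92 CPM, a log2 ratio of 7.87 (6.65 to 9.50). YFP1, with 11 counts, lay at 1.26, within 2-fold of that library's median of 0.71, and YFP2 at 8.74. Without cell 59 the Renin-null level was 0.18 CPM with 71 counts left in 6 cells, and the log2 ratio was 2.85. *Plagl1* and *Cdkn1c* thus had their highest level in the same cell, which carried podocyte markers, but 14 of the 15 Renin-null cells with at least 10 CPM of *Cdkn1c* had under 10 CPM of *Plagl1*.

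*Ndn* encodes Necdin, a paternally expressed protein of the MAGE family that restrains growth and is best known from neurons. It lies at chr7:62346569-62350262 on the plus strand. WT cells had 19 *Ndn* counts in 3 cells, none above 1.33 CPM. Renin-null cells had 27560 counts in 21 cells, from 0 to 1666 CPM and a median of 0. At least 10 CPM was seen in 0 of 51 WT cells and in 7 of 96 Renin-null cells (7.29%), or 5 with near-identical pairs counted once. Of those 7, 4 carried markers of other kidney cell types. These 4 were YFP1 cell 45 with its near-identical partner YFP2 cell 93, and the pair of YFP2 cells 48 and 96. That none of 51 WT cells was read at 10 CPM allows a share of such cells of up to 5.88% (3 of 51), or 6.98% by the exact interval, which limits cells read at that level and not cells that express the gene, since a shallow cell can miss it.

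YFP1 cell 1 held 87.7% of the *Ndn* counts. It had 7345 CPM of *Acta2* and 8633 CPM of *Tagln*, contractile genes of smooth muscle, with 0.28 CPM over the podocyte list and 237 CPM over the endothelial list, nearly all *Kdr*. Next came YFP1 cell 45 and its near-identical partner YFP2 cell 93, at 156 and 166 CPM, with 1038 and 1012 CPM over the proximal tubule markers, then YFP1 cell 14 with 344 counts, and YFP2 cells 48 and 96, another such pair, at 49.4 and 60.9 CPM. For WT and Renin-null cells the sums were 0.096 and 69.1 CPM, a log2 ratio of 9.49 (8.85 to 10.22). Without YFP1 cell 1 it was 6.53, and with pairs counted once 9.50. Cells with markers of other kidney cell types gave 10.8% of the Renin-null *Ndn* counts and 25.6% of all Renin-null counts. Without them the ratio was as large, at 9.75, and rested mainly on YFP1 cell 1.

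*Grb10* encodes an adaptor that binds the insulin and IGF1 receptors and damps their signal, and is maternally expressed in most tissues outside neurons. It lies at chr11:11930508-12038683 on the minus strand and has several promoters, which gene counts do not separate. *Grb10* ranged from 0 to 323 CPM in WT cells with a median of 0, while Renin-null cells spanned 0 to 2333 CPM around a median of 0.14. It reached 10 CPM in 1 of 51 WT cells (1.96%) and in 15 of 96 Renin-null cells (15.6%), 14 with pairs counted once. Of the 15, 3 had under 10 *Grb10* counts and 5 carried markers of other kidney cell types. *Grb10* was widely spread, with a count in 53 of 96 Renin-null cells and in 7 of 51 WT cells, beside 50 and 6 for *Cdkn1c*. At 100 CPM or more it was found in 6 Renin-null cells, beside 12 for *Cdkn1c*.

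The *Grb10* sums were 13.8 CPM for WT and 73.5 CPM for Renin-null cells, and the log2 ratio was 2.42 (2.36 to 2.47). The 3 highest Renin-null cells, YFP1 cell 26 with 2333 CPM, YFP1 cell 43 with 1766 CPM and YFP2 cell 62 with 640 CPM, held 88.2% of the Renin-null counts. All 3 carried high smooth muscle sums, from 14699 to 24692 CPM, and at most 40.9 CPM over the podocyte list. YFP2 cell 62 also held 2016 CPM over the fibroblast list. WT cell 18, the same cell that led *Peg3*, held 99.4% of the WT *Grb10* counts. Without it WT cells had 0.084 CPM and the log2 ratio was 9.77. Without YFP1 cell 26 it was 1.05. YFP1 lay at 3.22 and YFP2 at 1.02, the second within 2-fold of the median gene, so the size of the *Grb10* ratio rested on which cells were summed.

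*Mest* encodes a paternally expressed protein of the alpha/beta hydrolase family that is known as a marker of growing mesoderm and fat tissue. It lies at chr6:30723547-30748465 on the plus strand and overlaps *Copg2*, and because the kit does not mark strand, reads from such overlaps cannot be told apart. *Mest* was at 0 counts in all 51 WT cells and had 4452 counts in 13 of 96 Renin-null cells. With WT set to a floor of 3 counts over all its cells, the Renin-null level was 736-fold above that floor (log2 ratio 9.52). The lower 95% limit of the log2 ratio was 9.23. On the same floor YFP1 lay at 8.39 and YFP2 at 10.07, and without the highest cell, YFP2 cell 83, the log2 ratio was 7.42. At least 10 CPM was found in 4 of 96 Renin-null cells, 1 of them with under 10 counts.

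Most *Mest* counts again came from few cells. YFP2 cell 83 held 77.1% of the counts at 473 CPM, and YFP1 cell 7 a further 20.7% at 103 CPM. Cell 83 had 6140 CPM of *Emcn*, 980 CPM of *Kdr* and 474 CPM of *Cdh5*, which are endothelial genes, beside 3169 CPM of smooth muscle markers. YFP1 cell 7 had under 25 CPM each over the smooth muscle and renin cell lists and 754 CPM over the fibroblast list, nearly all of it *Dcn*. The endothelial list summed to 36.8 CPM in WT cells, with *Cdh5* and *Tek* at 0, and to 221 CPM in Renin-null cells, led in both by *Emcn*. By library, this sum was 28.8 CPM in YFP1, led by *Kdr* and below WT, and 382 CPM in YFP2. The 20 marker-bearing cells held 77.2% of the Renin-null *Mest* counts. With them left out, the log2 ratio of *Mest* was 7.82 and rested mainly on YFP1 cell 7, with 920 counts. The fibroblast list was not used to leave cells out, so YFP1 cell 7 stayed in. *Dlk1*, a paternally expressed membrane protein related to Notch ligands, had no count in 147 cells.

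**Figure D2:**
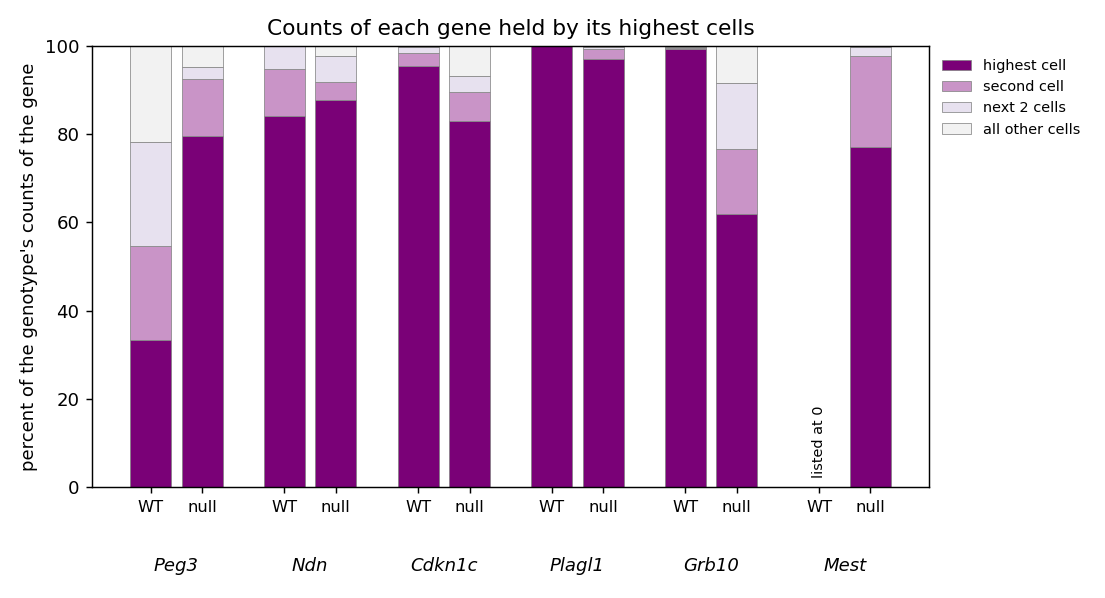
Share of the summed counts of each gene, in percent, that came from the highest cell, the second, the next pair of cells, and all other cells, for WT and Renin-null (null) cells. In Renin-null cells the highest cell held from 61.9% (*Grb10*) to 97.0% (*Plagl1*) of the counts of each of the 6 genes; *Mest* was listed at 0 in WT cells.

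Sums led by 1 cell are common in these data. Among genes with at least 100 counts in a genotype, the highest cell held a median of 69.1% of a gene's counts in WT cells (10853 genes) and 48.2% in Renin-null cells (14802 genes). The imprinted genes listed further on had medians of 71.8% and 61.9%. The 6 genes were above the Renin-null median, and *Peg3* in WT cells, at 33.4%, was well below the WT one.

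**Figure D3:**
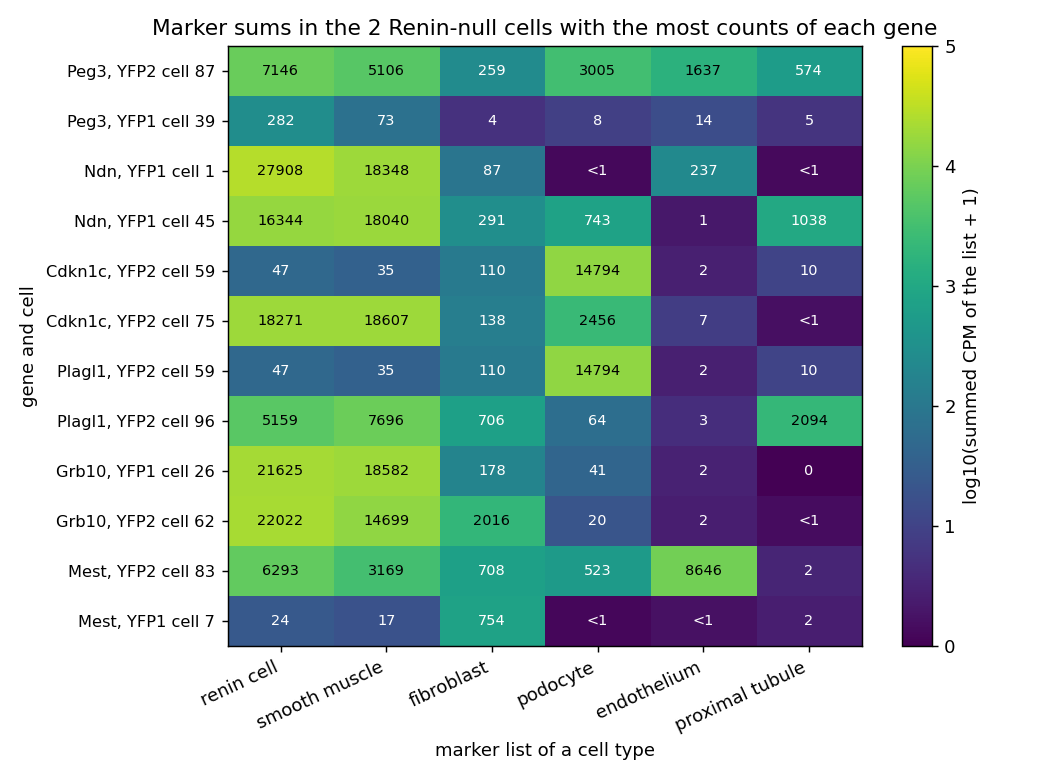
Marker sums in CPM (printed in each tile, with colour on a log10 scale) of 6 cell type lists in the 2 Renin-null cells with the most counts of each gene. The leading cells of *Ndn* and *Grb10* carry smooth muscle markers and a renin cell sum made up mostly of *Rgs5* (27410 and 19861 CPM, *Ren1* at 0), the leading cell of *Cdkn1c* and *Plagl1* carries podocyte markers at 14794 CPM, and that of *Mest* endothelial markers at 8646 CPM.

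The 6 genes were seldom high in the same cell. At a limit of 10 CPM, 63 of 96 Renin-null cells had none of them, 23 had 1, 7 had 2 and 3 had 3. With pairs counted once these were 61, 22, 7 and 2 of 92 cells, and in WT cells 34, 14, 3 and 0. *Cdkn1c* and *Ndn* were both at 10 CPM or more in 4 Renin-null cells (3 with pairs counted once), where 15 cells had *Cdkn1c* and 7 had *Ndn*. *Cdkn1c* and *Grb10* shared 4 cells (3 with pairs once), and *Grb10* and *Ndn* shared 3 (2 with pairs once). In WT cells both cells with *Cdkn1c* and the 1 cell with *Grb10* at that level also had *Peg3*, which 17 of 51 WT cells reached. No cell had both *Peg3* and *Ndn*, or *Peg3* and *Mest*, at that level. The highest rank correlation among Renin-null cells was that of *Cdkn1c* with *Mest* (Spearman's rho 0.41 over 96 cells of different depth), which shared 1 cell at 10 CPM. Levels between genes compare only per transcript length: per kilobase of exon, WT cells had 16.0 CPM of *Peg3*, 4.78 of *Cdkn1c* and 0.026 of *Ndn*, and Renin-null cells had 0.77, 118 and 18.7.

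The remaining imprinted genes give the setting for *Peg3*. A list of 67 imprinted genes by domain, the 10 above included, had 58 genes in the tables and 49 with a ratio. Relative to the median gene 13 were at least 2-fold lower, 13 within 2-fold and 23 at least 2-fold higher, that is 26.5% and 46.9% beside 34.6% and 37.6% of all genes. The median log2 ratio of the list was 1.50 against 1.17 over all genes. Below WT lay 13 of 49 genes, and 11 did so in the sum and in both libraries, which held for 23.8% of all genes. In 12 of the 49 the 2 Renin-null libraries lay on opposite sides of WT, as in 21.6% of all genes. Lower genes were thus no more frequent in the list than among all genes.

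The neighbours of *Peg3* had little signal. *Usp29*, paternally expressed from the shared start shown above, was at 1.99 CPM over WT cells and 4.89 CPM over Renin-null cells (1.30 as a log2 ratio), with YFP1 at -0.36 and YFP2 at 1.95. *Zim1*, a maternally expressed zinc finger gene next to *Peg3*, was at 1.86 and 1.27 CPM (-0.55, YFP1 at -0.84 and YFP2 at -0.34), at least 2-fold below the median gene. However, 87.5% of the WT *Zim1* counts were in WT cell 3, and *Zim1* reached 10 CPM in 1 of 51 WT cells and 4 of 96 Renin-null cells. *Zfp264* had 1 and 17 counts. *Usp29* reached 10 CPM in 3 of 51 WT cells and 7 of 96 Renin-null cells, where *Peg3* did so in 17 and 4. The summed level of *Usp29* thus lay within 2-fold of the median gene, at low counts, while in YFP1 alone it was at least 2-fold below the median of that library, 0.71.

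**Figure D4:**
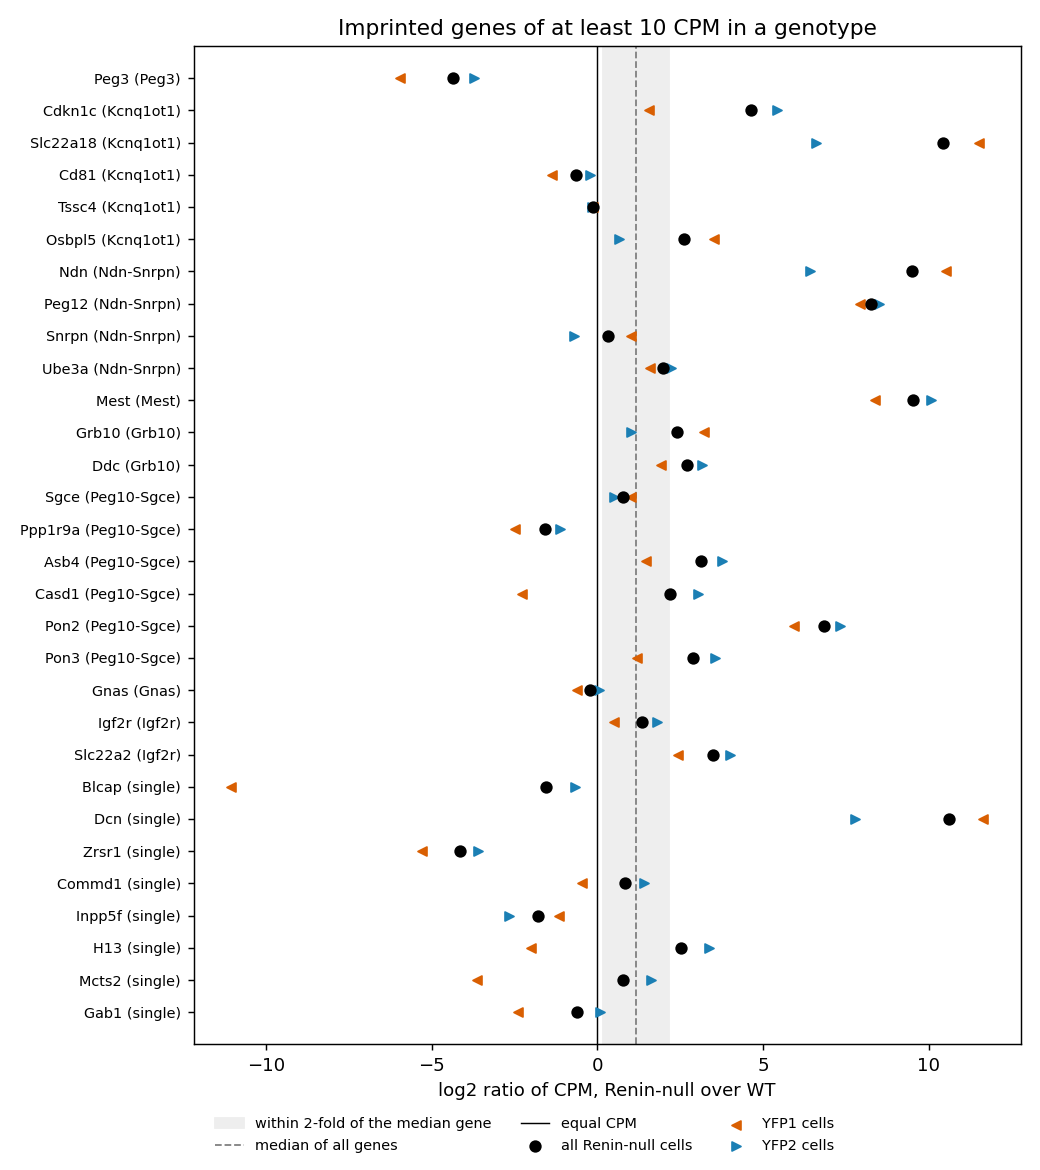
Log2 ratio of summed CPM, Renin-null over WT, of the 30 imprinted genes with at least 10 CPM in a genotype, in order of domain; black points are all Renin-null cells, triangles the libraries YFP1 and YFP2, the dashed line the median of all genes at 1.17 and the grey band 2-fold around it. *Peg3* at -4.37 and *Zrsr1* at -4.14 lie lowest, *Dcn*, *Slc22a18*, *Mest*, *Ndn* and *Peg12* highest.

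Besides *Peg3*, the genes below WT with at least 10 CPM were *Zrsr1*, *Inpp5f*, *Ppp1r9a* and *Blcap*, and less stably *Cd81*, *Gab1*, *Gnas* and *Tssc4*, of which *Cd81* turned to 0.16 in thinned cells, *Tssc4* to 0.26 in the cells that passed quality limits, and *Gab1* and *Gnas* to 0.07 and 0.35 with SCTransform. *Zrsr1*, a retrotransposed copy of a splicing factor gene that lies inside *Commd1*, had the ratio closest to that of *Peg3* at -4.14, but 94.1% of its WT counts were in 1 cell, its median cell had 2.10 CPM among WT and 2.06 CPM among Renin-null cells, and a retrocopy can share reads with its parent gene. *Inpp5f*, an inositol phosphatase, was at 57.1 and 16.5 CPM (-1.79) and *Ppp1r9a*, an actin-binding neurabin, at 422 and 141 CPM (-1.58). The 2 highest cells held 91.6% of the WT *Inpp5f* counts and 83.3% of the WT *Ppp1r9a* counts. *Inpp5f* reached 10 CPM in 7 of 51 WT cells and 7 of 96 Renin-null cells, and *Ppp1r9a* in 14 and 17. *Blcap* was at 46.6 and 15.9 CPM (-1.55) with 98.7% of the WT and 99.7% of the Renin-null counts in 1 cell each. *Cd81*, a tetraspanin, was found broadly, with 10 CPM or more in 47 of 51 WT cells and 59 of 96 Renin-null cells, and its sums were 865 and 560 CPM (-0.63).

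*Tssc4* and *Gnas* show that cell counts and sums can part. *Tssc4* had sums of 15.5 and 14.1 CPM (-0.14), yet reached 10 CPM in 26 of 51 WT cells and in 4 of 96 Renin-null cells. YFP1 cell 45 and its near-identical partner YFP2 cell 93, which held 1038 and 1012 CPM over the proximal tubule markers, gave 80.8% of the Renin-null *Tssc4* counts. The log2 ratio was -0.75 with pairs counted once and -4.83 with the 20 marker-bearing cells left out. *Tssc4* was thus, like *Peg3*, present in a larger share of WT cells. *Gnas*, which encodes the stimulatory G protein that couples receptors to cAMP and so to renin release, was at 518 and 448 CPM (-0.21, YFP1 at -0.60 and YFP2 at 0.05), with 10 CPM or more in 31 of 51 WT cells and 64 of 96 Renin-null cells. *Gab1*, an adaptor of growth factor receptors, was at 63.7 and 41.9 CPM (-0.60), with YFP1 at -2.41 and YFP2 at 0.07.

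Among the genes on the other side, *Slc22a18*, an organic cation transporter of the domain of *Cdkn1c*, was listed at 0 in WT cells and summed to 20.9 CPM over Renin-null cells. YFP1 summed to 44.1 CPM and YFP2 to 1.48 CPM. A single cell, YFP1 cell 19, held 83.8% of the *Slc22a18* counts and had 1926 CPM over the proximal tubule markers. *Phlda2*, a brake on placental growth from the same domain, had no WT count and 4.65 CPM over Renin-null cells, where 3 cells reached 10 CPM. *Peg12*, near *Ndn*, was at 0.076 and 23.3 CPM (8.26), with 99.4% of the Renin-null counts in YFP2 cell 75 and YFP1 cell 39. *Dcn*, decorin, which is imprinted in placenta and is also one of the 7 fibroblast markers used here, was at 0.025 and 39.6 CPM (10.61) with 10 CPM or more in 5 Renin-null cells. The fibroblast list summed to 173 CPM in WT cells, led by *Col1a2*, and 1159 CPM in Renin-null cells, led by *Col3a1*, with *Dpt* at 0 in both, and its part in these values was not tested.

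Imprinted genes often act on insulin-like growth factors, and 1 receptor and 1 ligand of that family were in the list. *Igf2r*, the receptor that clears IGF2, was at 38.4 and 98.2 CPM (1.36, YFP1 at 0.50 and YFP2 at 1.81), and reached 10 CPM in 9 of 51 WT cells and 32 of 96 Renin-null cells. *Igf2* itself was at 1.11 and 2.66 CPM (1.26), with YFP1 at 2.12 and YFP2 at -0.36. *Ube3a*, a ubiquitin ligase, was at 85.3 and 335 CPM (1.97) and *Snrpn*, whose transcript also covers *Snurf*, at 34.8 and 43.3 CPM (0.32, and -0.02 with pairs counted once), with YFP1 at 1.01 and YFP2 at -0.72.

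The domain of *Peg10* and *Sgce* on chromosome 6 held genes on both sides. *Pon2*, a paraoxonase, was at 0.51 and 58.5 CPM (6.84), with 10 CPM or more in 1 WT and 10 Renin-null cells, and its neighbour *Pon3* at 7.52 and 55.8 CPM (2.89), with 99.6% of the WT counts in 1 cell. *Asb4*, a ubiquitin ligase adaptor, had 1662 WT and 29128 Renin-null counts (log2 ratio 3.12). *Sgce*, a sarcoglycan of muscle membranes that is paternally expressed, was at 75.9 and 129 CPM (0.77), near the median gene, and *Casd1* at 9.63 and 44.2 CPM (2.20) with the libraries on opposite sides of WT, YFP1 at -2.27 and YFP2 at 3.04.

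Some of the higher genes are tubule genes as well as imprinted ones. *Slc22a2*, the organic cation transporter OCT2 of the proximal tubule, was at 4.73 and 53.1 CPM (3.49), with 71.7% of the Renin-null counts in YFP2 cell 69, and at 1.28, within 2-fold of the median gene, without the 20 marker-bearing cells. *Ddc*, the dopa decarboxylase gene beside *Grb10*, which tubules also express, was at 7.33 and 47.9 CPM (2.71) and had its highest level, 2119 CPM, in the same cell. That cell had 4943 CPM over the proximal tubule markers, and without the marker-bearing cells the log2 ratio of *Ddc* was -1.85. With pairs counted once it was 2.54. The proximal tubule list summed to 24.8 CPM in WT cells, led by *Slc34a1* with *Slc5a2* at 0, and to 311 CPM in Renin-null cells, led by *Miox*. *Osbpl5*, a lipid transfer protein gene near *Cdkn1c*, was at 4.05 and 24.7 CPM (2.61), and at -2.78 without the marker-bearing cells. Of its Renin-null counts, 68.9% were in YFP1 cell 17, with 372 CPM over the proximal tubule markers and 29247 CPM of smooth muscle markers. That cell was left out for its podocyte sum, nearly all *Synpo*. A further 15.1% were in YFP1 cell 19, which had 1926 CPM over the proximal tubule markers.

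In 3 further genes the libraries lay on opposite sides of WT. *H13*, a signal peptide peptidase gene that holds *Mcts2* within it, was at 11.1 and 63.7 CPM (2.52), with YFP1 at -1.99 and YFP2 at 3.37. *Mcts2* was at 7.79 and 13.3 CPM (0.77), with YFP1 at -3.62 and YFP2 at 1.62. A single cell, YFP2 cell 61, held 23100 of the 25389 Renin-null *H13* counts and 97.7% of those of *Mcts2*. *Commd1* was at 52.6 and 93.1 CPM (0.82), with YFP1 at -0.46 and YFP2 at 1.40.

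The list also names an expressed copy for each gene, and whether that holds in these kidney cells was not tested. The 17 genes listed as maternally expressed had a median log2 ratio of 2.52. Of these, 4 were at least 2-fold lower and 10 at least 2-fold higher than the median gene. The 21 genes listed as paternally expressed, *Peg3* among them, had a median of 0.77 with 7 lower and 7 higher. The 11 genes listed with a copy that depends on the tissue had a median of 2.20. These are descriptions of 3 short lists, beside shares of 34.6% and 37.6% over all genes.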

How the data were processed

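Single YFP+ kidney cells were profiled by SMART-Seq v4 without molecular identifiers or strand information. The authors quantified transcripts with Salmon on GRCm38 and summed them to genes with tximport (lengthScaledTPM); the values they deposited are expected counts, not normalized for depth. The submitters' processing notes name FastQC 0.11.5, Trimmomatic 0.39 and Salmon 0.11.2. For their own comparison the authors used SCTransform with the mitochondrial share regressed out.

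Expected counts were rounded to whole numbers per cell, summed per genotype (197904443 WT and 398812805 Renin-null counts), scaled to 1000000 counts (CPM) and compared as log2 ratios, Renin-null over WT. Where a genotype had no count, 3 counts took its place; genes with 3 or fewer counts in both were given no ratio. A gene was called lower or higher at 2-fold or more from the median log2 ratio of all genes. No test was run, since each genotype is 1 sample. Intervals (95%) are exact Poisson, conditional or Clopper-Pearson intervals. No doublet caller was run. Genes were matched by symbol to GENCODE M21; 8 of the 10 symbols have a RefSeq promoter window.

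The genes named are the 10 members, the imprinted genes of at least 10 CPM, some less abundant list members named after their values were seen, and the 5 genes most like *Peg3*. One gene of the podocyte marker list enters the list's sums and is not reported here by itself. Members and lists were chosen with earlier results of these data known. The ratio calculation was tested on simulated data. Python 3.11.15, pandas 2.3.3, scipy 1.17.1, R 4.3.3, edgeR 4.0.16 (for its TMM factors), Seurat 5.3.0 and sctransform 0.4.2 were used.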

Additional observations from a re-analysis of the deposited data

How the results depend on the processing

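All values in this part are log2 ratios relative to the median gene of the same setting, Renin-null over WT, unless they are counts or percentages. *Peg3* was -5.54 and was at least 2-fold below the median gene under each of 13 alternatives: -5.71 with the mean over cells of CPM, -2.69 with the difference of mean log2(CPM + 1), -5.02 in thinned cells, -5.54 with TMM factors and without mitochondrial counts (which scale all genes nearly alike and so can hardly move a value relative to the median gene), -5.44 with SCTransform, -6.67 in YFP1 alone, -4.71 in YFP2 alone, -7.96 without the highest cell of each genotype, -5.67 in 15 WT and 57 Renin-null cells passing a cell filter, -5.98 with values under 10 CPM set to 0, and -5.47 with near-identical wells counted once. With the Renin-null wells left out that held 1000 CPM or more of markers of other kidney cell types, it was -7.13. This alternative was chosen after seeing the data, and some of those wells, such as YFP1 well 17, carried high smooth muscle sums as well.

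*Ndn*, *Cdkn1c*, *Plagl1*, *Grb10* and *Mest* stayed above the median gene under all 13, but the number at least 2-fold above it fell from 5 to 1 with mean log2(CPM + 1), and to 3 in YFP1 alone and without marker-bearing wells. The median of the 6 genes was 5.08, and 0.33 with mean log2(CPM + 1), 1.43 in thinned cells, 3.69 with SCTransform, 1.67 in YFP1 alone and 1.14 without marker-bearing wells. Of the 49 imprinted genes, 13 lower and 23 higher became 3 and 3 with mean log2(CPM + 1), where 2.32% and 7.13% of all genes were so, and 15 were higher without marker-bearing wells, beside 36.4% of all genes; 13 below WT became 8 in thinned cells, beside 25.2% of all genes. Their median, 0.33, was 0.88 in thinned cells and turned to -0.54 without the highest cells. The share of cells with *Peg3*, 33.3% and 4.17% at 10 CPM, was 84.3% and 29.2% at 1 count and 17.6% and 1.04% at 100 CPM.

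Of the imprinted genes of at least 10 CPM, these turned side of the median gene: *Osbpl5*, 1.44, to -0.33 in YFP2 alone and -3.62 without marker-bearing wells; *Ddc*, 1.54, to -2.70 without those wells; *Casd1*, 1.03, to -2.98 in YFP1 alone and -0.47 without the highest cells; *H13*, 1.35, to -2.70 and -1.34 likewise; *Gnas*, -1.38, to 0.10 with mean log2(CPM + 1). Genes near the median turned side more easily: *Sgce*, -0.40, ran from -0.73 to 1.67 and kept its side under 7 of the 13, *Snrpn*, -0.86, from -1.70 to 1.17 (9 of 13), *Igf2r*, 0.18, from -0.68 to 1.08 (9 of 13), *Commd1*, -0.35, from -1.17 to 1.59 (9 of 13) and *Mcts2*, -0.40, from -4.33 to 0.63 (11 of 13). The cause was not tested. TMM factors moved the median of all genes from 1.17 to 0.47. No paired analysis was possible because the replicate numbers only name cells in accession order and no test was run. Each count rests on PCR copies without molecular identifiers, the labels name no mouse per cell, and a gene absent from a cell of few counts was not detectable at that depth.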

Other observations

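Known proteins set imprints, keep them or act at imprinted domains, and 10 of their genes were read as a further list. Of 8 with a ratio, 4 were at least 2-fold below and 2 at least 2-fold above the median gene, beside 34.6% and 37.6% of all genes. *Setdb1*, a histone H3 methyltransferase that TRIM28 recruits to silenced copies, summed to 60.8 CPM over WT cells and 2.49 CPM over Renin-null cells (-4.61 as a log2 ratio), with YFP1 at -3.64 and YFP2 at -6.92. It was in 18 of 51 WT cells and 28 of 96 Renin-null cells, and 81.2% of its WT counts were in WT cell 50. *Ctcf*, the insulator protein that binds the unmethylated copy at several imprinted domains, was at 38.4 and 7.27 CPM (-2.40), with YFP1 at -2.96 and YFP2 at -2.06. *Smchd1*, a chromatin protein needed at some imprinted clusters, was at 223 and 102 CPM (-1.13), with YFP1 at -0.46 and YFP2 at -2.13. The de novo methyltransferase gene *Dnmt3a* was at 138 and 124 CPM (-0.16), with the libraries on opposite sides of WT, YFP1 at -0.97 and YFP2 at 0.28.

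On the other side, the maintenance methyltransferase gene *Dnmt1* was at 2.11 and 16.7 CPM (2.98), in 13 of 51 WT cells and 43 of 96 Renin-null cells. Its partner *Uhrf1* was at 0 and 16.9 CPM, with 98.5% of the counts in YFP1 cell 30. *Trim28* was at 55.3 and 78.5 CPM (0.50) and *Zfp445* at 10.2 and 31.8 CPM (1.64), both within 2-fold of the median gene. *Zfp57* and *Dppa3* had 1 count each.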
